A study of Homo sapiens with 2 samples.

Results

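The 10 genes described here encode nucleotide exchange factors of cytosolic HSP70, the ATP-driven chaperone that the series studies as an RNA-binding protein acting on transcription by RNA polymerase III. They were taken by name from a deposited table of 332 chaperome genes (chaperones, co-chaperones and folding enzymes), and all 10 were found there. They fall into 3 classes: the HSP110 class with HSPA4, HSPA4L and HSPH1, the BAG class with BAG1 to BAG6, and HSPBP1, which forms a class of 1 gene. The sequenced cells were HEK293 Flp-In T-Rex, a human embryonic kidney line with a single recombination site into which a tetracycline-controlled transgene can be placed. Both libraries, replicates 1 and 2, belong to 1 group, so no groups could be compared. The deposited replicate columns carry the prefix NHS, whose meaning the labels do not give. The series describes derived lines that carry tagged GFP or tagged HSPA1A, and the sample labels do not state whether the sequenced cells were the parental line or one of these, or whether tetracycline was added. In the extraction protocol the name HEK293T is used instead. The libraries held 6828264 reads in replicate 1 and 4445676 in replicate 2, and the members took 5776 of them (0.0846%, 95% Wilson interval 0.0824 to 0.0868) and 3584 (0.0806%, 0.0780 to 0.0833). These intervals cover counting error only. Markers of the cell line were not analysed here, because the table covers chaperome genes.

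HSP70 holds an unfolded protein tightly while ADP is bound and lets it go when ATP takes the place of ADP. Exchange factors open the nucleotide-binding domain so that ADP leaves, and they therefore set how long a client stays bound. The BAG proteins do this through a short helical BAG domain, HSPBP1 through a curved armadillo-repeat fold, and the HSP110 proteins, which are themselves large relatives of HSP70, by docking onto the HSP70 nucleotide-binding domain. The classes differ in what they bring to HSP70: several BAG proteins link it to the proteasome, to autophagy or to signalling proteins, and HSP110 proteins also take part in dissolving protein aggregates.

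The upstream sequences of 3 members are shown, because they belong to HSPA4, the member with the highest level per kilobase of exon, to BAG3, the lowest per kilobase of genomic span, and to HSPBP1, the sole gene of its class. They are RefSeq sequences on GRCh38.p14, written 5′ to 3′ on the gene's strand, and each ends before the most upstream annotated start. HSPA4 is shown from chr5:133051763-133051961 (plus strand), BAG3 from chr10:119651130-119651369 (plus strand) and HSPBP1 from chr19:55280384-55280633 (minus strand). Capitals mark the GC box, a binding sequence of SP1-type factors, read as GGGCGG or CCGCCC.
HSPA4: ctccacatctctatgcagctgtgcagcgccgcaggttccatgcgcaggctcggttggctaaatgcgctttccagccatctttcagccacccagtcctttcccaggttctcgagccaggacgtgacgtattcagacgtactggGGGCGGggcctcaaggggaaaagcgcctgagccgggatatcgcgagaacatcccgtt
BAG3: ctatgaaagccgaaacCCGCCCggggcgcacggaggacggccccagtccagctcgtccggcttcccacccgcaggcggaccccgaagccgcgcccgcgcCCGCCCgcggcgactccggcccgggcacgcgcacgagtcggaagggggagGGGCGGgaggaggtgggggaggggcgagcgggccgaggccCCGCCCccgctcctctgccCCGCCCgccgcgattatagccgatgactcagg
HSPBP1: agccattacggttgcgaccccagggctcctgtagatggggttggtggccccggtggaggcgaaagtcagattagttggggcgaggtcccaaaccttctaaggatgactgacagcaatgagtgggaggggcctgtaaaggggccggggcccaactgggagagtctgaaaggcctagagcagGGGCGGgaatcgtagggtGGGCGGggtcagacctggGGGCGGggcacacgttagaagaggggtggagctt

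In the 250 bases before the RefSeq start, 7 of the 9 members in the promoter table held a GC box, against 62.8% of 266 table genes and 42.6% of all 35116 promoters. BAG3 had 6 matches in its window, 5 of them in the stretch shown, HSPBP1 had 3 and HSPA4 had 1, while HSPH1 and BAG6 had none. A pair of heat shock element units, read on both strands as GAANNTTC or TTCNNGAA, was found in BAG2 only, or 1 of 9 members, against 12.0% of table genes and 11.6% of all promoters. The CCAAT box (CCAAT or ATTGG) was in 0 of 9 members, against 40.6% of table genes and 32.0% of all promoters. The TATA box (TATAAA or TTTATA) was likewise in 0 of 9, against 8.27% and 10.7%. Each motif was counted on its own, so a base could belong to matches of 2 motifs. A match is a run of letters in this window and says nothing about binding. The G and C content ran from 50.4% in HSPH1 to 79.6% in BAG5, with a member median of 59.6%, against a median of 63.6% over the table genes. BAG4 was not in the promoter table.

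Every member was detected in both libraries. The fewest reads were those of BAG3, with 114 in replicate 1 and 72 in replicate 2, and the most were those of HSPA4, with 1899 and 1213. The authors gave levels as RPKM, reads per kilobase scaled to the library total, and their kilobases are those of the genomic span of the gene, introns included. On that scale 9 of 10 members reached a mean of 1 RPKM, against 46.4% of the whole table, and the member median was 2.28 RPKM, against 0.784 RPKM over all 332 genes. Per kilobase of exon, with the union of all exons in GENCODE 29 as the length, all 10 members reached 1 RPKM, against 74.4% of the table, and the medians were 11.9 RPKM for the members and 5.17 RPKM for the table. The span was between 1.16 times (BAG5) and 10.6 times (HSPA4) the exonic length, so that the choice of length moves the members against each other. Both scales are therefore given for the members. The SD between the 2 libraries was 1.35% of the mean for HSPA4 and 11.9% for BAG2, the lowest and the highest of the members.

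**Figure D1:**
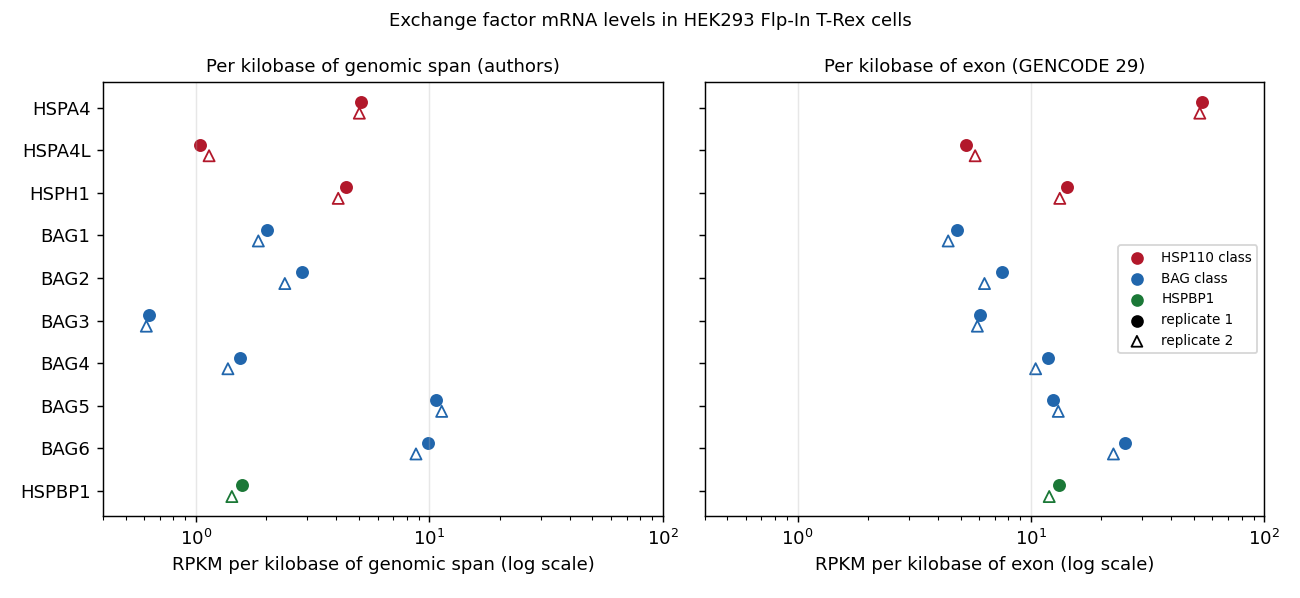
RPKM of each member in replicate 1 (filled circles) and replicate 2 (open triangles), on log axes, per kilobase of genomic span (left) and per kilobase of exon (right). BAG5 and BAG6 lie highest on the left, near 11.0 and 9.32 RPKM on average, and HSPA4 lies highest on the right at 53.5 RPKM.

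In mean level HSPA4 led the HSP110 class on every length scale tried, with HSPH1 next and HSPA4L lowest. HSPA4, also known as APG-2, is the broadly expressed HSP110 of human cells (ENSG00000170606, chromosome 5, 133052013 to 133106449, plus strand, GRCh38). It stood at 5.11 RPKM per kilobase of genomic span in replicate 1 and 5.01 in replicate 2, a mean of 5.06 ± 0.0683 (SD, n = 2). Per kilobase of exon it stood at 54.0 and 52.9 RPKM, a mean of 53.5 ± 0.722, which placed it at rank 30 of the 332 genes. It was at rank 47 by genomic span. The 2 libraries gave nearly the same level for HSPA4.

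HSPH1, also called HSP105, is a heat-inducible HSP110 (ENSG00000120694, chromosome 13, 31134973 to 31162388, minus strand). Its values were 4.38 and 4.07 RPKM per kilobase of genomic span and 14.3 and 13.3 RPKM per kilobase of exon, with means of 4.23 ± 0.220 and 13.8 ± 0.718 (SD, n = 2). HSPA4L, or APG-1, is a close relative of HSPA4 (ENSG00000164070, chromosome 4, 127781821 to 127840733, plus strand). With 418 and 298 reads it had 1.04 and 1.14 RPKM per kilobase of genomic span, and 5.27 and 5.77 RPKM per kilobase of exon. The exons of HSPA4L add up to 11621 bases, while its shortest transcript tagged as APPRIS principal (the annotation's choice of main protein-coding form) has 3020 bases. Per kilobase of that transcript HSPA4L stood at 21.2 ± 1.36 RPKM, next to HSPH1 at 22.3 ± 1.16 RPKM. On this scale the libraries differed in order. HSPH1 was higher in replicate 1 (23.1 against 20.3 RPKM) and HSPA4L in replicate 2 (22.2 against 21.5 RPKM).

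Differences between genes were taken as log2 ratios within each library, and one was called where both libraries had the same sign and the 95% interval of the mean, from its standard error (SE), left out 0. The SE came from the replicate SD pooled over the genes with at least 50 reads in both libraries, which was 0.139 on the log2 scale, or from counting error where that was larger. These ratios carry no p-value, because 0.5 is the smallest that an exact test on 2 libraries allows. HSPA4 exceeded HSPH1 by 1.95 (SE 0.14) per kilobase of exon, with 1.91 in replicate 1 and 1.99 in replicate 2. By genomic span the difference of 0.26 (SE 0.14) was not larger than the spread. HSPA4 exceeded HSPA4L by 2.22 by genomic span, 3.28 by exon and 1.43 by principal transcript (SE 0.14 each), so the highest and the lowest HSP110 were apart on each scale.

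BAG5 had the highest mean of the BAG class by genomic span, and BAG6 had it on the other length scales. By longest coding transcript BAG5 exceeded BAG4 by 0.20 (SE 0.14) on the log2 scale, within the spread. By principal transcript BAG5 stood at 13.9 RPKM, below BAG1 at 31.4. BAG5, which carries several BAG domains in a row (ENSG00000166170, chromosome 14, 103556545 to 103562657, minus strand), had 447 and 307 reads over a compact gene of 6112 bases. It reached 10.7 and 11.3 RPKM per kilobase of genomic span, the highest mean of all members at 11.0 ± 0.416 (SD, n = 2). Per kilobase of exon it had 12.4 and 13.1 RPKM, a mean of 12.8 ± 0.482, and its rank in the table went with the scale, 32 by genomic span and 94 by exon. BAG6 is a large protein that guards newly made membrane proteins and sends faulty ones to the proteasome (ENSG00000204463, chromosome 6, 31639028 to 31652705, minus strand). BAG6 had 922 and 533 reads, with 9.87 and 8.77 RPKM per kilobase of genomic span and 25.4 and 22.6 RPKM per kilobase of exon.

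BAG6 was higher than BAG5 by 0.91 (SE 0.14) on the log2 scale per kilobase of exon, with 1.03 in replicate 1 and 0.78 in replicate 2. By genomic span the difference of -0.24 (SE 0.14) did not exceed the spread. In BAG6 the BAG-like domain is known to hold the small partner protein UBL4A, and its part in nucleotide exchange is less settled than that of the other BAG proteins.

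The other BAG genes were lower than BAG6 on every scale tried, except that BAG1 came level with it by principal transcript. BAG4, which silences death receptors and is also named SODD (ENSG00000156735, chromosome 8, 38176533 to 38213301, plus strand), had 389 and 224 reads. It stood at 1.55 and 1.37 RPKM per kilobase of genomic span and 11.8 and 10.5 RPKM per kilobase of exon. BAG2, which blocks the ubiquitin ligase STUB1 (ENSG00000112208, chromosome 6, 57172326 to 57189833, plus strand), had 340 and 187 reads, with 2.84 and 2.403 RPKM by genomic span and 7.49 and 6.32 RPKM by exon. BAG2 shares 44.2% of its exonic bases with genes on the other strand, mainly RAB23. The libraries were stranded, but how strand was treated in counting was not given in the sources used here, so that reads of RAB23 could be among those of BAG2.

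BAG1, which ties HSP70 to the proteasome and binds the survival protein BCL2 (ENSG00000107262, chromosome 9, 33247820 to 33264720, minus strand), had 232 and 139 reads. Its level was 2.01 and 1.85 RPKM per kilobase of genomic span and 4.804 and 4.42 RPKM per kilobase of exon. Its 12 annotated transcripts cover 7073 exonic bases together, while the principal one has 1038 bases. Per kilobase of that principal transcript BAG1 stood at 31.4 ± 1.85 RPKM, and at 8.62 ± 0.506 RPKM per kilobase of its longest coding transcript of 3786 bases. Its rank among the 332 genes was 179 by exon, 157 by longest coding transcript and 66 by principal transcript, the widest range of any member.

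BAG3 directs aggregated proteins to autophagy and is induced by heat shock factor HSF1 (ENSG00000151929, chromosome 10, 119651380 to 119677819, plus strand). It was the 1 member under 1 RPKM per kilobase of genomic span, with 0.631 in replicate 1 and 0.613 in replicate 2. Per kilobase of exon it had 6.08 and 5.90 RPKM. The gap between BAG6 and BAG3 was 3.90 on the log2 scale by genomic span and 1.99 by exon (SE 0.14 each), so BAG3 was lower on both.

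HSPBP1, the human counterpart of yeast Fes1 and like BAG2 an inhibitor of STUB1 (ENSG00000133265, chromosome 19, 55262223 to 55280381, minus strand), had 195 and 115 reads. Only BAG3 had fewer. Per kilobase of genomic span it stood at 1.57 and 1.42 RPKM, a mean of 1.499 ± 0.105 (SD, n = 2). Its transcripts are short, with 2159 exonic bases in all, and per kilobase of exon it stood at 13.2 and 12.0 RPKM, a mean of 12.6 ± 0.881. On that scale it was level with HSPH1 and BAG5: HSPH1 exceeded it by 0.13 and BAG5 by 0.02 on the log2 scale (SE 0.14 each), both within the spread.

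Summed over its genes, the HSP110 class was far below the BAG class per kilobase of genomic span and about level with it per kilobase of exon. By genomic span the 3 HSP110 genes added up to 10.5 RPKM in replicate 1 and 10.2 in replicate 2, against 27.6 and 26.3 RPKM for the 6 BAG genes. The log2 ratio of HSP110 over BAG was -1.38 (SE 0.14, 95% interval -1.65 to -1.11). By exon the HSP110 genes added up to 73.6 and 72.0 RPKM, against 68.1 and 62.8 RPKM for the BAG genes. The ratio was then 0.15 (interval -0.12 to 0.43), positive in both libraries and within the spread.

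With other transcript lengths the classes also stayed close. The ratio was 0.07 (interval -0.20 to 0.34) by longest coding transcript and -0.07 (interval -0.34 to 0.20) by shortest principal transcript. Without BAG6, whose exchange activity is the least settled, the ratio of HSP110 over BAG was -0.77 by genomic span and 0.81 by exon (SE 0.14 each), so it was called in opposite directions. Without HSPA4 in the HSP110 class the ratio by genomic span was -2.34. The ratio without HSPA4 was not computed by exon, where HSPA4 made up 73.5% of the HSP110 sum. With no length at all, the HSP110 class had 459 RPM (reads scaled to the library total) in replicate 1 and 451 RPM in replicate 2, against 358 and 329 for the BAG class, and the log2 ratio was 0.41 (SE 0.14).

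In summed level HSPBP1 was the smallest class on each scale. The HSP110 class exceeded it 6.91 times by genomic span and 5.76 times by exon, and the BAG class exceeded it 18.0 times and 5.18 times. All of these ratios were larger than the spread, but they set sums over 3 and 6 genes against 1 gene. Per kilobase of exon the median gene stood at 13.8 RPKM in the HSP110 class and 9.03 RPKM in the BAG class, against 12.6 RPKM for HSPBP1. By genomic span these medians were 4.23 and 2.28 RPKM, against 1.499 RPKM for HSPBP1. In shares of the summed RPKM per kilobase of exon, the HSP110 class held 48.3 ± 1.10%, the BAG class 43.4 ± 0.832% and HSPBP1 8.35 ± 0.269% (SD, n = 2). By genomic span the same shares were 26.7 ± 0.302%, 69.4 ± 0.157% and 3.86 ± 0.145%. HSPA4 alone made up 48.8% of the HSP110 sum by genomic span and 73.5% by exon. The leading BAG gene was BAG5 by genomic span, with 40.8% of the BAG sum, and BAG6 by exon, with 36.7%.

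**Figure D2:**
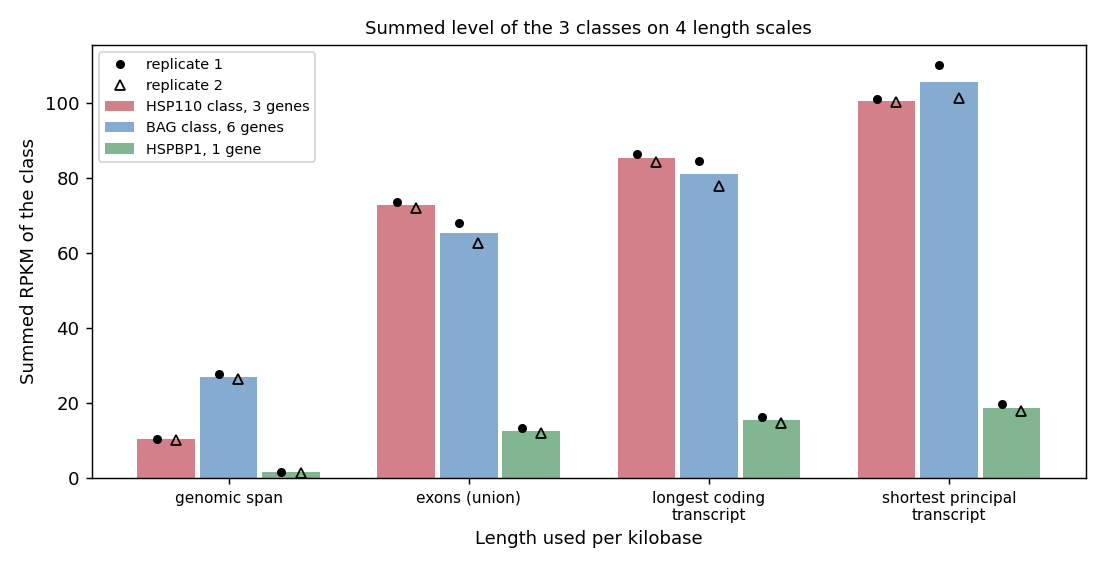
Summed RPKM of the HSP110 class, the BAG class and HSPBP1 on 4 length scales; bars are the mean of both libraries, circles replicate 1 and triangles replicate 2. The HSP110 bar is below the BAG bar by genomic span (10.4 against 27.0 RPKM) and close to it on the other 3 scales.

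By genomic span the members ran in the order BAG5, BAG6, HSPA4, HSPH1, BAG2, BAG1, HSPBP1, BAG4, HSPA4L and BAG3. Of the 9 neighbouring pairs in this order, 6 differed by more than the spread. BAG5 and BAG6, HSPA4 and HSPH1, and HSPBP1 and BAG4 (0.04, SE 0.14) did not. By exon the order was HSPA4, BAG6, HSPH1, BAG5, HSPBP1, BAG4, BAG2, BAG3, HSPA4L and BAG1. In that order 3 neighbouring pairs were separated: HSPA4 exceeded BAG6 by 1.16, BAG6 exceeded HSPH1 by 0.80 and BAG4 exceeded BAG2 by 0.69 (SE 0.14 each). HSPH1, BAG5, HSPBP1 and BAG4 thus followed one another with no step beyond the spread, as did BAG2, BAG3, HSPA4L and BAG1.

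Over all 45 pairs of members, 19 had the same order, called on each of the 4 length scales, and 15 were called in opposite directions on different scales. HSPA4 was above 6 other members and below none in the first set, and so was BAG6. BAG3 was below 6 and above none, and BAG2 was below 4 and above none. HSPA4 and BAG6 themselves were ordered differently, with HSPA4 lower by 0.88 by genomic span and higher by 1.16 by exon.

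**Figure D3:**
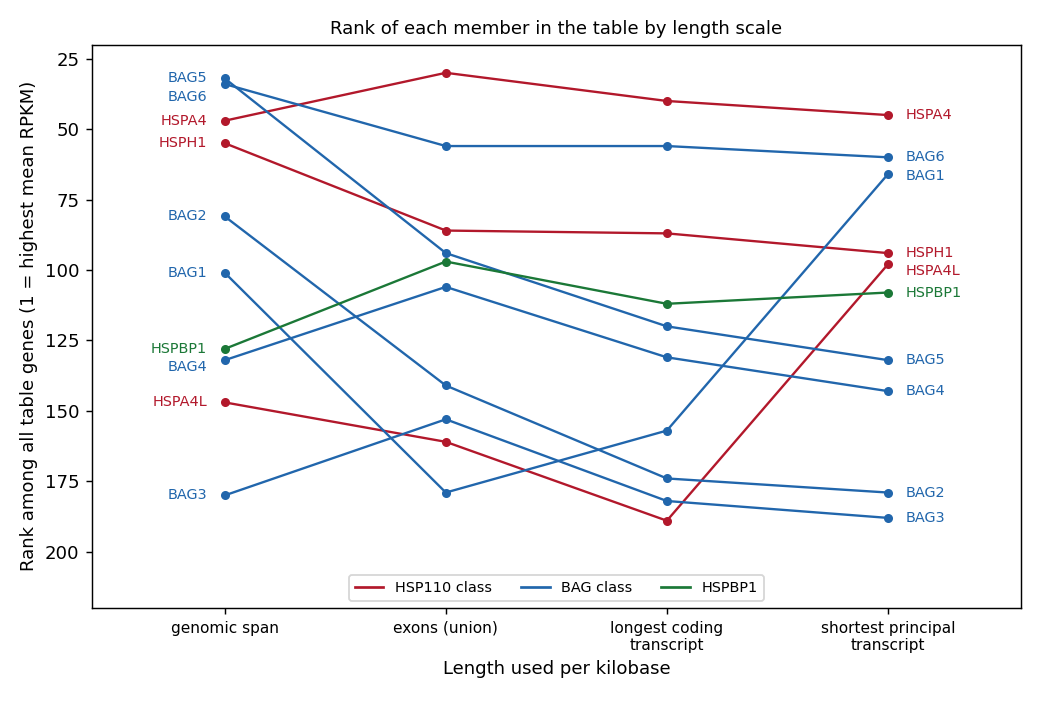
Rank of each member among the 332 genes of the table (1 is the highest mean RPKM, at the top) on 4 length scales. BAG6 keeps ranks 34 to 60 and HSPA4 ranks 30 to 47, while BAG1 moves between 66 and 179.

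The genes next to BAG5 in the table show the same dependence on length. By genomic span BAG5 at 11.0 RPKM lay between PSMG1, a proteasome assembly chaperone, at 11.4 and CCT3, a subunit of the CCT ring, at 10.3 RPKM. Per kilobase of exon BAG5 stood at 12.8 RPKM, against 39.5 for PSMG1 and 152 for CCT3, which had 4366 and 2570 reads. HSPA4 lay between FKBP10 and FKBPL by genomic span (5.50 and 4.85 RPKM), and at 53.5 RPKM by exon it was above both (13.5 and 5.70). HSPBP1 lay between TTC19 and GTF3C3 (1.501 and 1.48 RPKM by genomic span, 11.4 and 7.67 by exon).

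The members were set beside the HSP70s they act on. Of 7 cytosolic HSP70 genes, 3 reached 1 RPKM by genomic span: HSPA8, the constitutive HSP70, at 394 ± 6.95, HSPA1B, a stress-inducible one, at 311 ± 15.9, and HSPA14 at 1.13 ± 0.142 RPKM (SD, n = 2). HSPA1A, HSPA1L, HSPA2 and HSPA6 had at most 24 reads in a library. HSPA1A and HSPA1B are near-identical, so their reads cannot be assigned with certainty. The labels do not state whether the cells carried tagged HSPA1A. Reads of such a transgene could be among those of HSPA1B and in the summed HSP70 level, which was not tested. Summed over the 10 members, the exchange factors came to 5.49 ± 0.110% of the summed cytosolic HSP70 level by genomic span and to 19.0 ± 0.502% by exon. Against HSPA8 alone the 10 members came to 9.86 ± 0.493% by genomic span and 32.4 ± 1.79% by exon. By longest coding and shortest principal transcript they came to 19.8 ± 1.16% and 21.8 ± 1.17%. The exons of HSPA8 add up to 4849 bases, while its longest coding transcript has 2463. Per kilobase of exon HSPA4 stood at 11.5 ± 0.357% of HSPA8, BAG6 at 5.15 ± 0.523%, and each of the other 8 members at 0.990% to 2.96%. Per kilobase of longest coding transcript HSPA4 stood at 6.22 ± 0.194% of HSPA8. By genomic span BAG5 was the highest, at 2.79 ± 0.0562% of HSPA8, BAG6 stood at 2.37 ± 0.240% and HSPA4 at 1.29 ± 0.0400%.

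Exchange factors of other compartments, taken as a fixed list, are given for comparison. They are HYOU1 and SIL1 of the endoplasmic reticulum and GRPEL1 and GRPEL2 of mitochondria. The members' median was 2.28 RPKM by genomic span, against 5.65 RPKM for these 4 genes, and 11.9 RPKM by exon, against 12.0 RPKM. HYOU1, itself a relative of HSP110, stood at 14.3 ± 1.197 RPKM per kilobase of exon, GRPEL2 at 13.7 ± 1.69, GRPEL1 at 10.3 ± 0.355 and SIL1 at 4.77 ± 0.325. The gene SIL1 has long introns and came to 0.0552 RPKM by genomic span. HSPA4, at 53.5 RPKM by exon, was above all 4 in mean level on that scale. By genomic span HSPA4 stood at 5.06 RPKM, below HYOU1 at 8.45 and GRPEL2 at 6.62 and above GRPEL1 at 4.68 RPKM.

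Of 14 listed partners of the members, 12 were in the table, and 7 reached 1 RPKM by genomic span. BAG2 stood at 6.91 ± 0.822 and HSPBP1 at 12.6 ± 0.881 RPKM per kilobase of exon, against 50.5 ± 1.60 for STUB1, the ubiquitin ligase that both inhibit. By genomic span BAG2 stood at 2.62 and HSPBP1 at 1.499 RPKM, against 44.2 RPKM for STUB1. BAG3 had 114 and 72 reads, against 2 and 3 for HSPB8, the small heat shock protein that works with it. HSPB6, another small heat shock protein that BAG3 can bind, had 3 and 0, and CRYAB had 1 and 0. BAG3 was thus present where these partners were at or near 0. SGTA, which hands membrane proteins to the BAG6 complex, stood at 15.3 ± 1.37 RPKM per kilobase of exon and 2.03 ± 0.182 by genomic span. Of the J-domain proteins, which bring clients to HSP70 ahead of the exchange step, DNAJA1 stood at 67.8 ± 4.28, DNAJB1 at 17.1 ± 1.01, DNAJA2 at 16.9 ± 0.314, DNAJB6 at 4.68 ± 0.369 and DNAJB4 at 3.17 ± 0.316 RPKM per kilobase of exon. By genomic span DNAJA1 stood at 12.7, DNAJA2 at 4.67, DNAJB1 at 1.38, DNAJB6 at 0.854 and DNAJB4 at 0.309 RPKM. The place of DNAJB6 went with the scale, as its exons add up to 14981 bases. Per kilobase of longest coding transcript DNAJB6 stood at 27.7 ± 2.19 RPKM, against 27.7 ± 1.64 for DNAJB1 and 27.4 ± 0.509 for DNAJA2. By shortest principal transcript DNAJB6 stood at 43.6 RPKM, above DNAJB1 at 27.7 and DNAJA2 at 27.4.

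The 2 libraries were compared gene by gene, with counting error alone as the measure of error. In an exact two-sided binomial test per gene, with the library totals as exposure and Benjamini-Hochberg adjustment over the 320 genes with reads, 0 of 10 members were called, against 4.69% of the genes tested (2.81% higher and 1.88% lower in replicate 1). At an unadjusted p under 0.05 there was 1 member, BAG6 (log2 replicate 1 over replicate 2 of 0.17, adjusted p = 0.222, exact binomial test). BAG2 had the largest ratio of the members, at 0.24 (adjusted p = 0.331, exact binomial test). A count of 0 among 10 is near that background and says nothing particular about the members. In 8 of 10 members replicate 1 was higher, with HSPA4L and BAG5 the exceptions, against 174 of the 320 table genes with reads. The members' median ratio was 0.11, against 0.01 over the table. The test compares 2 libraries of 1 group, and the labels do not say that they came from separate cultures, so the spread may be technical.

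**Figure D4:**
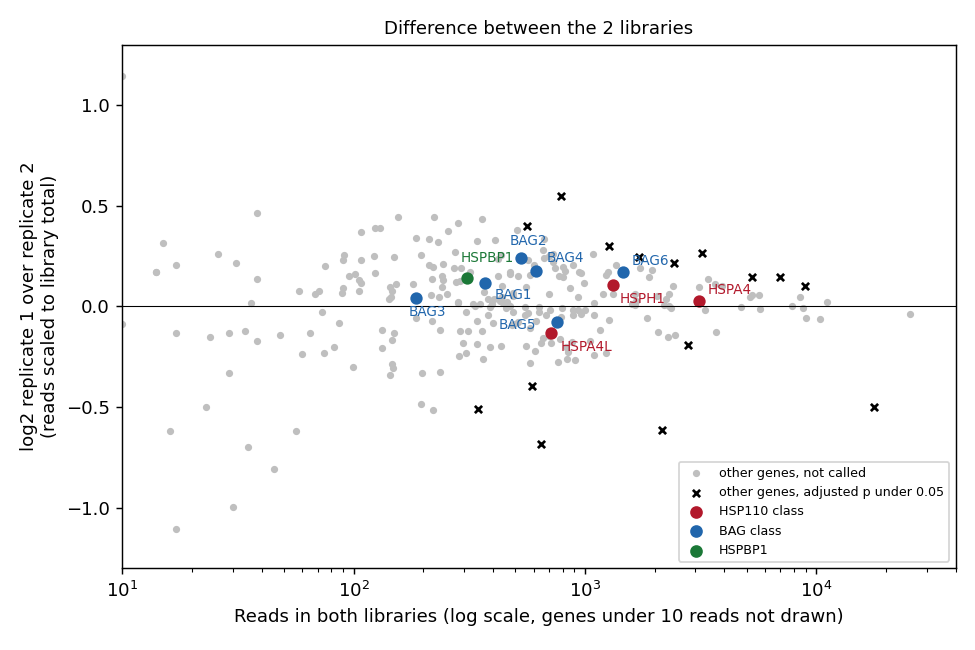
Log2 ratio of replicate 1 over replicate 2, from reads scaled to the library totals, against the reads of each gene in both libraries (log axis); 2 genes with at least 10 reads lie outside the drawn range. The members (coloured) lie between -0.13 for HSPA4L and 0.24 for BAG2, and none is among the called genes (crosses).

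Sequence shared with other genes was counted, since the sources used here do not say how reads with several matches were treated. In windows of 50 bases along the longest coding transcript, HSPA4, HSPH1, BAG1, BAG3, BAG6 and HSPBP1 shared 0% with transcripts of another gene on the same strand. BAG4 shared 3.93% with 1 gene, HSPA4L shared 2.34% with 353 genes, BAG2 shared 0.742% and BAG5 shared 0.270%. On the opposite strand BAG2 shared 43.6% of its windows and HSPA4L 6.88%.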

How the data were processed

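Total RNA of 2 HEK293 Flp-In T-Rex libraries was made into stranded libraries, per the labels' protocols. Tools listed in the submitters' processing notes are STAR 2.6.0b, Bowtie2 2.4.2 and Trim Galore 0.6.4, beside the build GRCh38; their roles, the counting program, its use of strand and the annotation were not given in the sources used here. Per the file headers, the deposited table has a column for each replicate and a mean RPKM, over 332 genes. The deposited replicate values are whole read counts. The authors' RPKM is the average, over the replicates, of counts per kilobase of genomic span (end minus start), scaled to library totals of 6828264 and 4445676 reads. These totals were solved from the table by least squares, with a largest relative misfit of 8.37e-14, and which reads they count was not stated.

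The RPKM per replicate was computed from counts and totals with Python 3.11.15, numpy 2.4.6, pandas 2.3.3 and scipy 1.17.1, and figures with matplotlib 3.10.9. Exon unions and transcript lengths came from GENCODE 29 (GRCh38), where all 332 identifiers were found. For 325 genes a transcript is tagged as APPRIS principal. For the others the shortest coding transcript was used, or the shortest of any type where none was coding. Values per exon assume that counts hold exonic reads only. Ratios between genes used counts with 0.5 reads added. The per-gene binomial test was tested on simulated data. No count model of groups was run, since there is 1 group.

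The members, lists and comparisons were chosen with earlier results of these data known. Genes named were the 10 members, fixed lists of 7 cytosolic HSP70 genes, 4 exchange factors of other compartments and 14 partners, of which GET4 and UBL4A were not analysed here, and the rank neighbours of each class leader. RAB23 was named after the annotation was seen. The principal-transcript length and the BAG class without BAG2, or without BAG6 by exon, were added after the data were seen.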

Additional observations from a re-analysis of the deposited data

How the results depend on the processing

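Of 127 recomputed values, 79 kept their direction and call or their size, 8 moved, 11 fell below the threshold, 8 passed it and 21 changed sign. The sign changes all came with another length or with reads alone. Leaving out a replicate could not change a sign, because each ratio by genomic span had the same sign in both libraries. The pooled SD does not enter the ratio itself. The ratio of the HSP110 class over the BAG class, -1.38 on the log2 scale by genomic span, was 0.15 by exonic length, 0.071 by longest coding transcript, 0.41 by reads alone, 0.81 by exonic length without BAG6 and -0.070 by shortest principal transcript. By genomic span it was -0.77 without BAG6, -1.23 without BAG2 and -2.34 without HSPA4. Leaving out replicate 1 or 2 gave -1.37 and -1.39. Both classes stayed above HSPBP1 in all alternatives run. The smallest ratios were 1.82 for HSP110, without HSPA4 by genomic span, and 1.72 for BAG, without BAG6 by exonic length. HSP110 without HSPA4 was not computed on the other scales.

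In the order exonic length, longest coding transcript, reads alone and shortest principal transcript, BAG5 over BAG6 was -0.91, -1.27, -0.92 and -1.33, and BAG6 over HSPA4 was -1.16, -0.77, -1.11 and -0.71. BAG2 over BAG1 was -0.32 by longest coding and -2.19 by principal transcript, and BAG1 over HSPBP1 was -1.45 by exonic length and -0.84 by longest coding transcript. HSPA4L over BAG3 was -0.13 by exonic length and -0.11 by longest coding transcript. By reads alone HSPBP1 over BAG4 was -0.98 and BAG4 over HSPA4L was -0.26, and by principal transcript BAG4 over HSPA4L was -0.82.

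The 6 neighbouring pairs called by genomic span became 1 with the SD pooled over all genes (0.445, which includes genes with few reads), 3 without replicate 1 and 5 without replicate 2. Called in the same direction were 4 by exonic length, 4 by longest coding transcript, 4 by reads alone and 5 by shortest principal transcript. With 1 RPKM added before the log, 8 were called. The pooled SD was then recomputed on those values and was 0.0816 in place of 0.139. BAG5 over BAG6 was thus called, although its ratio was 0.22 in place of 0.24. These counts run over all 9 pairs, including those not called by genomic span. A threshold of 5 RPKM left 3 members in place of 9. Of the 332 genes in the table, those down to rank 47 by genomic span reached it. Rank 47 was HSPA4 at 5.06 RPKM, and rank 48 was FKBPL at 4.85 RPKM. The members' sum as a percent of cytosolic HSP70, 5.49 by genomic span, was 19.0 by exonic length, 14.6 by longest coding transcript, 26.8 by reads alone, 16.5 by principal transcript and 9.86 against HSPA8 alone. No paired analysis was possible because both libraries belong to the same group, so no 2 groups share replicate numbers; differences between genes were taken within each library. With 2 libraries no exact p under 0.5 can be had, and a gene such as BAG3 with 186 reads in both libraries is known less precisely than HSPA4.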
